A study of Mus musculus with 6 samples.

Results

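Aminoacyl-tRNA synthetases are the enzymes that join each amino acid to its tRNA, and the genes described here are the 38 protein-coding genes whose names mark them as synthetases, of 55487 genes in the count table. They were picked by a rule on gene names, which was set with earlier results of these data known. Of these, 21 encode cytosolic enzymes and 17, with names ending in 2, encode mitochondrial ones. Tarsl2, which also ends in 2, encodes a second cytosolic threonyl-tRNA synthetase and was placed with the cytosolic genes. The samples were 6 RNA libraries of αTC1, an established mouse glucagonoma line of glucagon-producing cells, 3 of cells given the SMNDC1 inhibitor G786-1089 and 3 of cells given DMSO, its solvent. SMNDC1 is a splicing factor with a Tudor domain, and the comparison made here is of gene expression with and without the compound. The column names of all 6 libraries carry WT, and no allele or transgene is named for either group. The labels give neither the dose nor the duration of treatment.

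Each synthetase recognises 1 amino acid, activates it with ATP and transfers it to the 3′ end of the matching tRNAs, so that the ribosome can read the code. Nuclear genes encode both sets of enzymes, and most amino acids have a separate enzyme for the mitochondrial matrix. Gars and Kars serve both compartments from a single gene, Eprs carries the glutamyl and prolyl activities in one chain, and phenylalanyl-tRNA synthetase of the cytosol is built from the products of Farsa and Farsb. Many cytosolic synthetase genes are known targets of ATF4, the transcription factor of the amino acid response.

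Counts summed to between 70150880 and 94747943 per inhibitor library and between 59070705 and 69480568 per DMSO library, so every inhibitor library was the deeper. All 38 genes passed the filter on low counts and were among 15082 genes tested. Of 8 α cell markers, 7 reached 1 FPKM (fragments per kilobase, scaled between libraries) in a library. Glucagon (Gcg) lay between 17086 and 19365 FPKM with DMSO and between 2401 and 3024 with the inhibitor. Ins1, Pdx1, Sst, Hhex, Ppy, Cpa1 and Prss2, markers of other pancreatic cells, had 0 counts, Cela1 reached 21.8 FPKM and Cd68 13.8. Smndc1 itself, whose protein and not its RNA is the target of the compound, was low at 3.80 ± 2.42 CPM (counts per 1000000 after TMM scaling of the libraries, SD, n = 3) with the inhibitor and 2.12 ± 0.575 with DMSO. The log2 fold change of Smndc1 was 0.84 with an edgeR adjusted p of 0.481.

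With DMSO, the synthetases spanned a wide range of levels per transcript length. Gars, the glycyl enzyme, had the highest level at 261 ± 22.7 FPKM (SD, n = 3). Rars at 133 ± 9.97 FPKM and Wars at 133 ± 10 followed and did not differ beyond their spread. Eprs at 124 ± 4.88, Dars at 114 ± 3.24 and Sars at 113 ± 9.33 FPKM came next. Vars2 was lowest at 0.871 ± 0.739 FPKM, below Wars2 at 1.5 ± 0.467, with overlapping spreads. The median level was 89.3 FPKM for the 21 cytosolic genes and 7.63 FPKM for the 17 mitochondrial ones. Among cytosolic genes, Qars at 7.77 FPKM, Tarsl2 at 7.95 and Lars at 9.22 were the lowest, and among mitochondrial genes Rars2 at 49.7 FPKM and Cars2 at 33.6 were the highest.

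**Figure D1:**
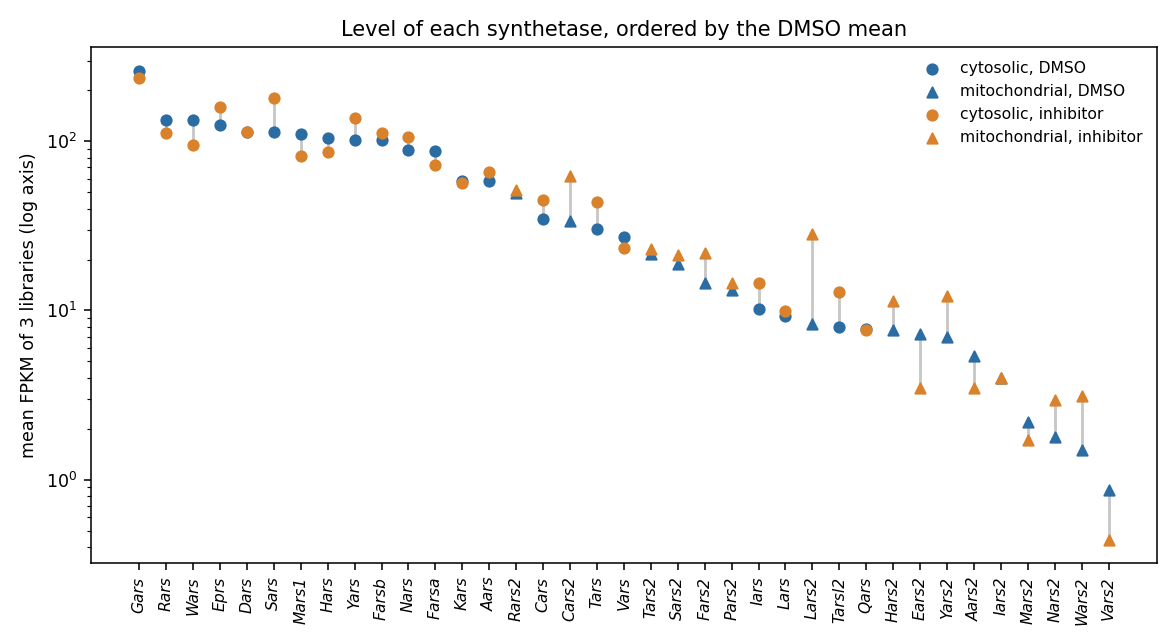
Mean FPKM of 3 libraries per group (log axis) for 37 of the 38 synthetases, ordered by the DMSO mean, with circles for cytosolic and triangles for mitochondrial genes and a grey line joining the means of a gene. Cytosolic genes fill the upper end and mitochondrial genes the lower, and the widest gap between groups is that of Lars2, at 8.33 FPKM with DMSO and 28.2 with the inhibitor.

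Summed over the 21 cytosolic genes, the level was 1792, 1883 and 1645 FPKM in the inhibitor libraries and 1780, 1690 and 1679 in the DMSO libraries, so the groups overlapped, with means of 1773 ± 120 and 1716 ± 55.2 (SD, n = 3). Over the 17 mitochondrial genes the sums were 257, 303 and 272 FPKM with the inhibitor and 217, 218 and 204 with DMSO, or 277 ± 23.5 against 213 ± 7.53. These mitochondrial sums did not overlap between groups. Without Lars2 they were still apart, at 229, 278 and 239 against 207, 212 and 195 FPKM. Cars2, still within these sums, had 49.8, 76.1 and 60.5 FPKM with the inhibitor and 27.3, 33.3 and 40.3 with DMSO. The means of Cars2 were 62.2 ± 13.2 and 33.6 ± 6.49. With Cars2 taken off as well as Lars2, the sums of the groups overlap. The separation of the mitochondrial sums therefore rests on Lars2 and Cars2. Of the 17 genes, 11 had a log2 fold change above 0 and 6 below, so the sums do not describe a rise of every gene. In bulk RNA, a change in RNA per cell and a change in which cells contributed cannot be told apart.

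With the inhibitor, single synthetases changed in both directions. In edgeR's quasi-likelihood fit, with p-values adjusted by Benjamini-Hochberg over the 15082 genes, 6 of the 38 genes were higher with the inhibitor at an adjusted p under 0.05: Lars2, Cars2, Yars2, Sars, Tars and Yars. Wars and Ears2 were lower. The 6 higher genes are 15.8% of the synthetases, where 6.98% of all tested genes were called higher. The 2 lower genes are 5.26%, where 7.8% of all tested genes were called lower. The remaining 30 genes were not called, and 17 of all 38, beside 28.1% of all tested genes, had an unadjusted p under 0.05. The median log2 fold change was 0.11 over the cytosolic genes and 0.15 over the mitochondrial genes, beside 0.04 over all tested genes, of which 51.8% lay above 0.

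CPM values of the groups did not overlap for 17 of the 38 genes. Of these, 13 were higher in every inhibitor library than in every DMSO library, or 34.2%, against 18.2% of all tested genes. The other 4, or 10.5%, were lower in every inhibitor library, against 18.5% of all tested genes. A second threshold was an adjusted p not above 0.1 together with a change of 1 or more on the log2 scale in either direction. The study used it to narrow its splicing events to genes of changed expression. Under it, 2 of the 38 synthetases were higher (Lars2 and Wars2) and 1 lower (Ears2), beside 6.25% and 4.16% of all tested genes. All 3 are mitochondrial, a set with a median standard error of 0.26, against 0.13 over the cytosolic genes. Wars2 was at 1.5 FPKM with DMSO and had an edgeR adjusted p of 0.0852.

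**Figure D2:**
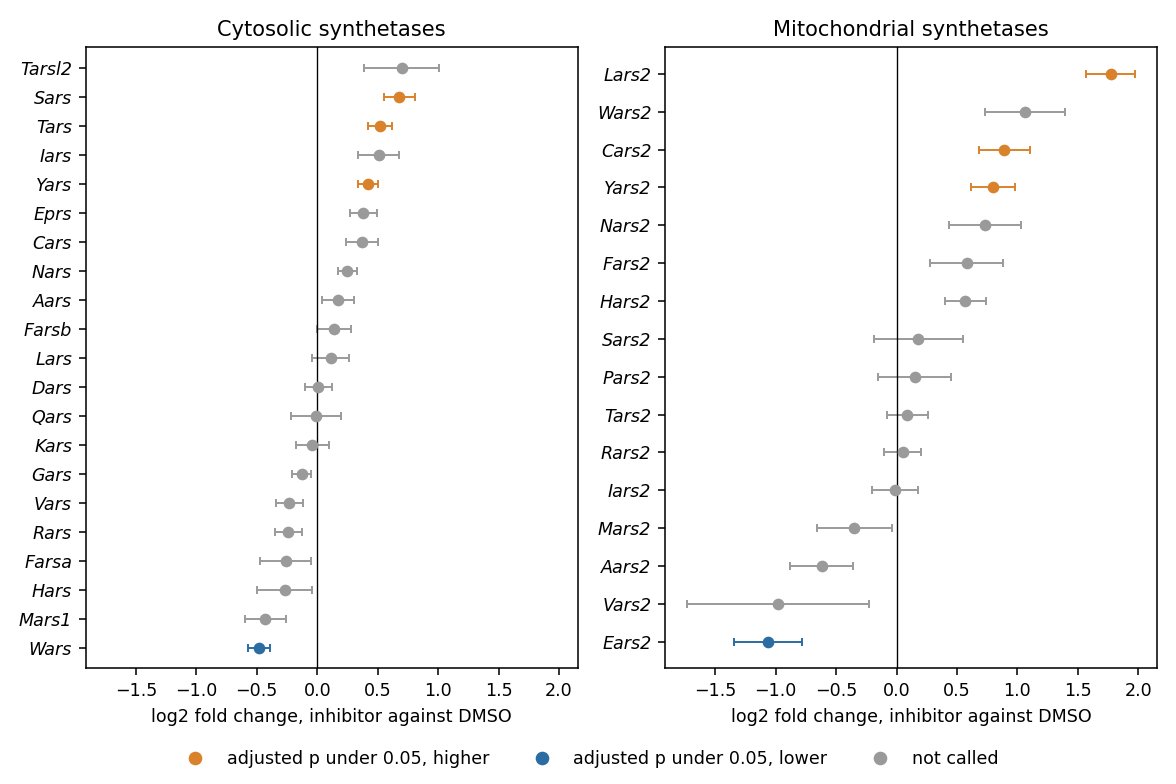
Log2 fold change of inhibitor against DMSO with its standard error (bars) for 21 cytosolic synthetases (left) and 16 of the 17 mitochondrial synthetases (right), 3 libraries per group, with orange and blue points for genes called higher and lower by edgeR. Cytosolic values run from -0.48 (Wars) to 0.70 (Tarsl2) and mitochondrial values from -1.06 (Ears2) to 1.77 (Lars2).

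Among the cytosolic enzymes, 3 of 21 genes rose (14.3%) and 1 fell (4.76%), beside 6.98% and 7.8% of all tested genes. Each changed by less than 1 on the log2 scale. Sars (chr3:108424865-108445209, GRCm38), the seryl enzyme, had 600, 833 and 720 CPM in the inhibitor libraries and 473, 468 and 405 CPM in the DMSO libraries. Every inhibitor library lay above every DMSO library, and the inhibitor libraries were the more spread. Its level rose 1.6-fold, a log2 fold change of 0.68 ± 0.13 (SE, edgeR adjusted p = 0.0177).

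Tars (chr15:11382301-11399665), the threonyl enzyme, had 188, 187 and 198 CPM with the inhibitor and 144, 122 and 133 CPM with DMSO. The groups were well apart and the inhibitor libraries almost equal. The log2 fold change was 0.52 ± 0.10 (edgeR adjusted p = 0.0146). Tarsl2, its paralogue, had 49.7, 33.8 and 50.9 CPM against 22.4, 39.7 and 20.9, with 1 DMSO library above an inhibitor library, and its log2 fold change of 0.70 ± 0.31 was not called (edgeR adjusted p = 0.197).

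Yars (chr4:129189760-129219607), the tyrosyl enzyme, had 418, 438 and 448 CPM with the inhibitor and 357, 308 and 308 with DMSO. Again no libraries overlapped, and the change was the smallest of those called higher, at 0.42 ± 0.08 on the log2 scale (edgeR adjusted p = 0.0203). Wars (chr12:108860030-108894174), the tryptophanyl enzyme, went the other way. It had 309, 311 and 273 CPM with the inhibitor and 430, 381 and 437 CPM with DMSO, with all inhibitor libraries below all DMSO libraries. The log2 fold change of Wars was -0.48 ± 0.09 (edgeR adjusted p = 0.0163).

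Several further cytosolic genes had separate groups without being called. Iars, the isoleucyl enzyme, had a log2 fold change of 0.51 ± 0.17 (edgeR adjusted p = 0.0956) with 61.8 to 82.6 CPM against 42.7 to 54.3. A processed pseudogene, Gm4849, matches an Iars transcript over 1656 bases at 96.0% identity, so reads of the pair may be shared. Eprs had 0.38 ± 0.11 (adjusted p = 0.0653), Cars, the cysteinyl enzyme, 0.37 ± 0.13 (adjusted p = 0.116) and Nars, the asparaginyl enzyme, 0.25 ± 0.08 (adjusted p = 0.102) on the log2 scale in the edgeR fit. Vars, the valyl enzyme, was below DMSO in every inhibitor library at -0.23 ± 0.11 (edgeR adjusted p = 0.249).

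For the other cytosolic genes the groups overlapped. Aars, Farsb, Lars, Dars, Qars, Kars, Gars, Rars, Farsa, Hars and Mars1 had log2 fold changes from -0.43 (Mars1) to 0.17 (Aars). Mars1, the methionyl enzyme, shares 68 exon bases, 1.99% of its exons, with its neighbour Ddit3, which rose strongly, and reads were counted without regard to strand. Mars1 had 234, 316 and 245 CPM against 347, 294 and 427 (edgeR adjusted p = 0.164), and the part of Ddit3 reads in these values was not tested.

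DESeq2 called 7 cytosolic genes higher, adding Iars, Eprs, Cars and Nars, with 12.3% of all genes higher in that fit, whereas edgeR with offsets for gene length called 0, with adjusted p of 0.0531 for Sars, 0.0698 for Tars and 0.0583 for Yars and 5.56% of all genes higher. With libraries of the same column letter as a replicate block, the edgeR adjusted p was 0.0518 for Tars, 0.0721 for Yars and 0.0634 for Wars. Without DMSO library B or without DMSO library C, 0 cytosolic genes were called higher, where 3.77% and 3.49% of all genes were.

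**Figure D3:**
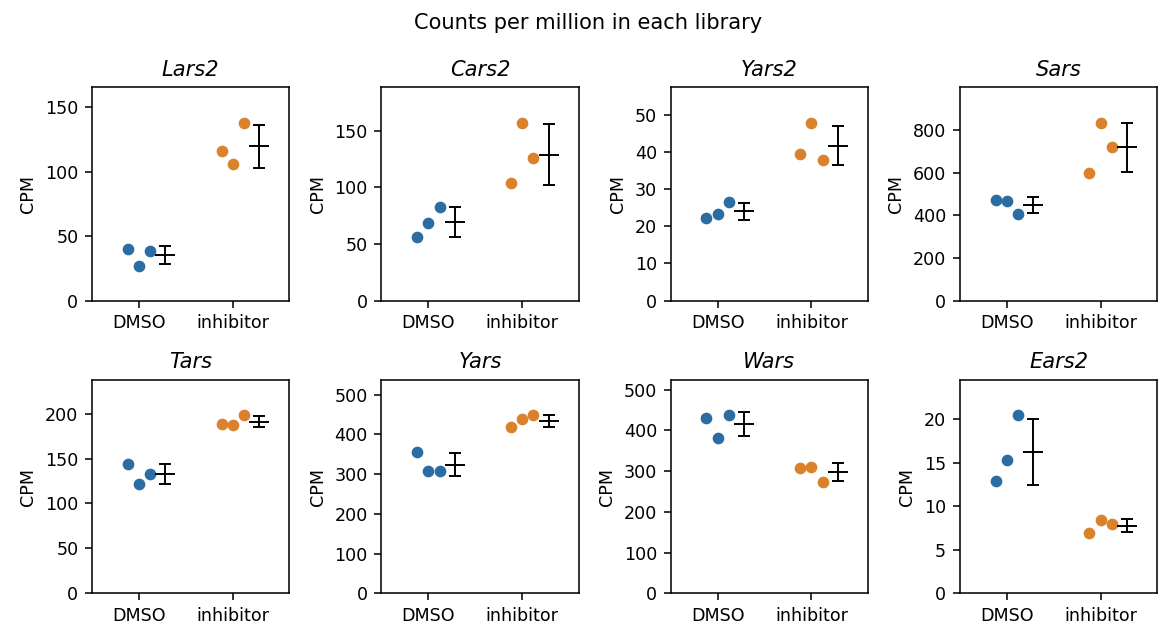
CPM per library for the 8 called synthetases, with blue points for DMSO, orange points for the inhibitor, and a black bar for the mean and SD of 3 libraries. In each panel the groups do not overlap, with 6 genes higher and Wars and Ears2 lower with the inhibitor.

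Of the 8 cytosolic synthetases held in the multisynthetase complex, a large particle that groups several of these enzymes with scaffold proteins, 0 were called in either direction by edgeR, 3 had an unadjusted p under 0.05, and DESeq2 called 2 of them, Iars and Eprs, higher. Their median log2 fold change was 0.00 and their range -0.43 to 0.51. The 13 cytosolic genes outside the complex include all 4 called genes and had a median of 0.17. Over all tested genes, 6.98% were called higher and 7.8% lower. The scaffold genes Aimp1, Aimp2 and Eef1e1 had log2 fold changes of -0.31 ± 0.14, -0.23 ± 0.17 and 0.08 ± 0.17, and 0 of 3 were called.

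Synthetases fall into class I and class II by the fold of their catalytic domain. In class I, 1 of 9 cytosolic genes was called higher (Yars) and 1 lower (Wars), and 3 of 9 mitochondrial genes were called higher (Lars2, Cars2 and Yars2) and 1 lower (Ears2). In class II, 2 of 11 cytosolic genes were called higher (Sars and Tars) and 0 lower, and of the 8 mitochondrial genes 0 were called by edgeR, with 3 at an unadjusted p under 0.05 and Hars2 called higher by DESeq2. Eprs, with a domain of each class, was counted apart. These counts stand beside 6.98% of all tested genes called higher and 7.8% called lower.

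A part of the cytosolic set is commonly listed among ATF4 targets. Of these 13 genes, 3 were called higher (Sars, Tars and Yars, 23.1%), 1 lower (Wars, 7.69%) and 9 not. Shares over all tested genes were 6.98% and 7.8%. The median log2 fold change of the listed genes was 0.25. An unadjusted p under 0.05 was found for 9 of the 13, beside 28.1% of all tested genes. The 8 cytosolic genes not on that list (Dars, Farsa, Farsb, Hars, Kars, Qars, Rars and Tarsl2) included 0 called genes, 0 with an unadjusted p under 0.05 and 0 called by DESeq2, and their median was -0.03. Groups did not overlap for 9 of the 13 listed genes, 7 of them higher and 2 lower (Vars and Wars), and for 0 of the 8 others, beside 36.7% of all tested genes in either direction.

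The C/EBP-ATF response element, which ATF4 binds together with C/EBP proteins, has the letters TGATGNAAN. Promoter windows from RefSeq (GRCm38.p6), of 300 bases with 250 before and 50 after the start site, were matched by symbol for 14 of the 21 cytosolic and 14 of the 17 mitochondrial genes. Searched on both strands, the letters occurred in 5 of the 14 cytosolic windows (35.7%), those of Tars, Iars, Yars, Aars and Gars, and in 0 of the 14 mitochondrial windows. They occurred in 3.95% of all 32851 windows. The stricter form TGATGCAA, which lies within the first pattern, occurred in 4 of these 5 windows and in 0.895% of all windows. Windows were not matched for Cars, Nars, Lars, Vars, Rars, Hars and Wars, nor, among others, for Hars2 and Pars2. The matched stretches are shown because they are shared by called and uncalled genes, 5′ to 3′ on the strand of the gene, with at most 30 bases after the start site and the match in capitals.
Tars: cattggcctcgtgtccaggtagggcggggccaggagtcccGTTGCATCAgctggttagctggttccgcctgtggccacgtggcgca
Iars: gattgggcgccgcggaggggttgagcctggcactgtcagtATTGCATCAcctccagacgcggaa
Yars: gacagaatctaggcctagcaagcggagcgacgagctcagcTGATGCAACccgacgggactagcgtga
Aars, upstream match: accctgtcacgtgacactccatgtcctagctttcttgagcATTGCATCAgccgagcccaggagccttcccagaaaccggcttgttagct
Aars, match past the start: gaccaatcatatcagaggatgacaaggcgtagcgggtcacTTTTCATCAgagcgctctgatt
Gars: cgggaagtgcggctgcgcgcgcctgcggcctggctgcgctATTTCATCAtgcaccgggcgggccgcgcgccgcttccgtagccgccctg

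These stretches lie at chr15:11399629-11399714 (minus strand) for Tars, chr13:49682096-49682159 for Iars, chr4:129189866-129189932 for Yars, chr8:111033689-111033777 and chr8:111033810-111033871 for Aars, and chr6:55037930-55038018 for Gars, all but that of Tars on the plus strand. The match of Yars reads along the gene, and the others read along the opposite strand, so that the capitals there are the reverse complement of the pattern. The first base of the match lies 16 bases before the start site in Tars, 31 before it in Gars and 113 before it in the upstream match of Aars, and at base 7 after it in Iars, 4 in Yars and 9 in the other match of Aars. Tars and Yars were called higher. Iars had a log2 fold change of 0.51, Aars 0.17 ± 0.13 (edgeR adjusted p = 0.436) and Gars -0.13 ± 0.08 (edgeR adjusted p = 0.346). The median log2 fold change was 0.42 over the 5 genes with a match and 0.01 over the 9 cytosolic genes whose window had none, which include Sars. A match of letters is a description of the window and was not tested as a binding site.

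Among the mitochondrial enzymes, 3 of 17 genes rose (17.6%) and 1 fell (5.88%), beside 6.98% and 7.8% of all tested genes. The largest called changes of the 38 genes in both directions, those of Lars2 and Ears2, were mitochondrial. Lars2 (chr9:123366927-123462666), the mitochondrial leucyl enzyme, had 116, 106 and 138 CPM with the inhibitor and 40.1, 27.1 and 38.7 CPM with DMSO. The lowest inhibitor library was far above the highest DMSO library. The level rose 3.40-fold, a log2 fold change of 1.77 ± 0.20 (edgeR adjusted p = 0.00238).

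A stretch of 72 bases in the 3′ untranslated part of Lars2 is 98.6% identical to a transcript of Gm15564, a non-coding gene on chromosome 16 that was looked at after the values were seen. Gm15564 had 11.4, 10.9 and 15 CPM with the inhibitor and 1.35, 0.646 and 1.88 with DMSO, a log2 fold change of 3.27 ± 0.50 (edgeR adjusted p = 0.00755). The part that reads from such shared sequence played in the value of Lars2 was not tested. The cytosolic leucyl gene Lars had 44.6, 41.6 and 42.9 CPM against 43.2, 35.7 and 40.8, with overlapping groups and a log2 fold change of 0.11 ± 0.15.

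Cars2 (chr8:11513977-11550783), the mitochondrial cysteinyl enzyme, had 104, 157 and 126 CPM with the inhibitor and 56.5, 69.0 and 83.1 with DMSO. All inhibitor libraries were higher, with a wide spread in both groups, and the log2 fold change was 0.89 ± 0.21 (edgeR adjusted p = 0.0323). Its exons share 422 bases, 5.83%, with the neighbouring gene Naxd.

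Yars2 (chr16:16302965-16309640), the mitochondrial tyrosyl enzyme, had 39.4, 47.8 and 37.9 CPM against 22.2, 23.2 and 26.5. The groups were apart, with a log2 fold change of 0.80 ± 0.18 (edgeR adjusted p = 0.0280). In this fit both tyrosyl enzymes were called higher, while DESeq2 also called both cysteinyl enzymes higher (Cars at an adjusted p of 0.0397).

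Ears2 (chr7:122037213-122067263), the mitochondrial glutamyl enzyme, had 6.93, 8.45 and 7.93 CPM with the inhibitor and 12.9, 15.3 and 20.4 CPM with DMSO. Every inhibitor library was below every DMSO library, and the log2 fold change of -1.06 ± 0.28 (edgeR adjusted p = 0.0493) passed the threshold narrowly. Counts behind these values lay between 518 and 1109 per library.

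Other mitochondrial genes had separate groups but were not called. Wars2, the mitochondrial tryptophanyl enzyme, had 14.4, 12.3 and 18.3 CPM against 5.24, 6.73 and 9.62, a log2 fold change of 1.06 ± 0.33 (edgeR adjusted p = 0.0852). Hars2, the histidyl enzyme, had 45.9, 38.5 and 38.9 CPM against 29.1, 29.3 and 24.8, or 0.57 ± 0.17 (edgeR adjusted p = 0.0690). Its exons share 195 bases with Hars, which lies head to head with it and had -0.27 ± 0.23. Nars2, the asparaginyl enzyme, had 0.73 ± 0.30 (edgeR adjusted p = 0.167) and Aars2, the alanyl enzyme, with all inhibitor libraries below DMSO, -0.62 ± 0.26 (edgeR adjusted p = 0.174).

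Groups overlapped for genes that included Fars2, Sars2, Pars2, Tars2, Rars2, Iars2, Mars2 and Vars2. Their log2 fold changes ran from -0.98 ± 0.75 (Vars2) to 0.58 ± 0.30 (Fars2). Vars2 had counts down to 92 in a library and 1.51, 8.25 and 2.83 CPM with DMSO, so a single DMSO library carried most of its signal. The median standard error was 0.26 over the mitochondrial and 0.13 over the cytosolic genes, so that smaller differences were detectable in the cytosolic set. Exons of other genes overlapped 24.2% of the exon bases of Iars2 and 10.7% of Fars2, and in the cytosolic set 15.1% of Aars.

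DESeq2 called 5 mitochondrial genes higher, adding Wars2 and Hars2, with 12.3% of all genes higher in that fit. Ears2 was not called in any fit that left out 1 library, with adjusted p from 0.0762 to 0.163 in edgeR, and neither was Yars2, from 0.0540 to 0.0962, while Lars2 was called in 6 of 6 such fits. With the replicate block, the edgeR adjusted p was 0.0860 for Yars2 and 0.114 for Ears2.

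Enzymes of the same amino acid were set side by side. Of 18 pairs of a mitochondrial and a cytosolic gene, with Fars2 set against Farsa and against Farsb and with Eprs set against Ears2 and Pars2, 10 had log2 fold changes of the same sign and 8 of opposite sign. The mitochondrial value was above the cytosolic value in 10 pairs and below it in 8. For tryptophan the values were 1.06 for Wars2 and -0.48 for Wars. For glutamate they were -1.06 for Ears2 and 0.38 for Eprs, and for leucine 1.77 for Lars2 and 0.11 for Lars. Serine and threonine had the called change in the cytosol, with 0.18 ± 0.37 for Sars2 and 0.09 ± 0.17 for Tars2. The differences within pairs were not tested.

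**Figure D4:**
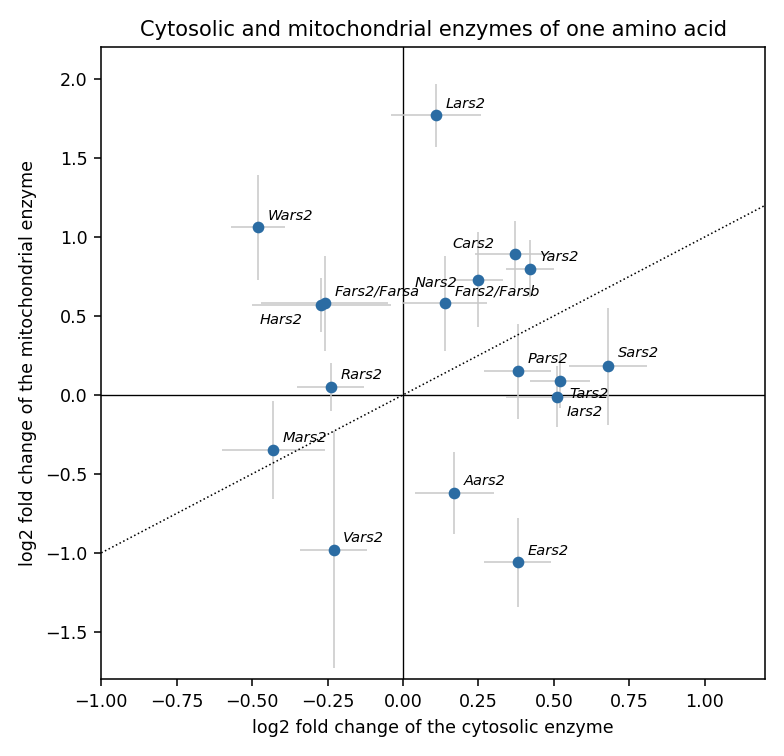
Log2 fold change of the mitochondrial enzyme (y axis, named beside each point) against that of the cytosolic enzyme of the same amino acid (x axis), with standard errors in grey, for 17 of the 18 pairs. The dotted line marks equal change. Lars2 and Wars2 lie far above it and Ears2 far below it.

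Mitochondria have no glutaminyl-tRNA synthetase of their own, and there Ears2 first loads glutamate on the tRNA for glutamine, which an amidotransferase made of the products of Gatb, Gatc and Qrsl1 then converts. Gatc had 21.4, 13.1 and 21.8 CPM with the inhibitor and 56.5, 36.3 and 48.1 with DMSO, a log2 fold change of -1.32 ± 0.27 (edgeR adjusted p = 0.0223). It fell, as did Ears2. Qrsl1, the catalytic subunit, rose, with 33.0, 26.5 and 20.4 CPM against 8.88, 11.8 and 11.0 and a log2 fold change of 1.33 ± 0.26 (edgeR adjusted p = 0.0188). Gatb had -0.31 ± 0.26 with overlapping groups, and Mtfmt, which formylates the initiator tRNA of mitochondria, had 0.13 ± 0.33. With 1 library left out, Qrsl1 was called in 1 of 6 fits and Gatc in 2, and with the replicate block Qrsl1 had an edgeR adjusted p of 0.0716.

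Across all 33 partner genes, listed by general knowledge of the pathway, 6 were called higher and 4 lower by edgeR, or 18.2% and 12.1%. The shares over all tested genes were 6.98% and 7.8%. The 9 genes of the amino acid response among these 33 held 3 of the higher and 2 of the lower calls. Among 11 genes of tRNA maturation and export, 2 were higher and 1 lower. Trnt1, which adds the terminal CCA to tRNAs, had 103, 85.4 and 79.7 CPM against 49.2, 57.5 and 48.4, a log2 fold change of 0.79 ± 0.15 (edgeR adjusted p = 0.0172). Xpot, which exports tRNAs from the nucleus, rose from a low level, with 11.1, 19.5 and 12.5 CPM against 5, 3.72 and 4.64 and 1.69 ± 0.34 on the log2 scale (edgeR adjusted p = 0.0203). In both genes the groups were apart, although Trnt1 was called in 4 and Xpot in 2 of the 6 fits that left out a library, and the replicate block gave edgeR adjusted p of 0.0561 and 0.0838.

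The tRNA splicing endonuclease removes introns from tRNAs. Tsen34, a catalytic subunit of it, had 176, 178 and 143 CPM against 277, 291 and 260 and fell by 0.73 ± 0.11 on the log2 scale (edgeR adjusted p = 0.00756). The structural subunit Tsen54 had 19.4, 29.1 and 17.2 CPM against 12, 5.82 and 9.13, or 1.29 ± 0.36 (edgeR adjusted p = 0.0595). Tsen15 had 0.08 ± 0.24. The RNA kinase Clp1 had 1.29 ± 0.43 (edgeR adjusted p = 0.1), and Rtcb, the tRNA ligase, stood at 355 to 367 CPM against 341 to 372.

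Of the genes for editing and deacylation of mischarged tRNAs (Aarsd1, Dtd1, Dtd2 and Prorsd1), 0 of 4 were called by edgeR. Of these 4, 1 had an unadjusted p under 0.05, and DESeq2 called Dtd1 lower. Their log2 fold changes lay between -0.76 and -0.45. Among all tested genes, edgeR called 6.98% higher and 7.8% lower, and 28.1% had an unadjusted p under 0.05. DESeq2 called 1811 of the 15082 genes lower. For selenocysteine, which is made on its tRNA, Sepsecs had 1.10 ± 0.30 (edgeR adjusted p = 0.0574) and the kinase Pstk 0.38 ± 0.29. Thg1l, Elac1 and Elac2, which process tRNA ends, had -0.03 ± 0.36, 0.35 ± 1.10 and -0.21 ± 0.17. Elac1 had 0.628, 0.369 and 7.02 CPM with the inhibitor, and without inhibitor library C its log2 fold change turned to -2.07.

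Genes of the amino acid response, the pathway that ATF4 heads, moved in both directions. Ddit3, which encodes the stress factor CHOP, had 263, 286 and 332 CPM with the inhibitor and 22.5, 18.3 and 16.8 with DMSO, and rose 15.3-fold (log2 fold change 3.94 ± 0.16, edgeR adjusted p = 0.000102). Trib3, a pseudokinase that restrains ATF4, had a log2 fold change of 2.82 ± 0.17 (edgeR adjusted p = 0.000246) and Sesn2, a leucine sensor, 1.18 ± 0.13 (edgeR adjusted p = 0.00229), and both rose.

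Chac1, which degrades glutathione, had 84.4, 78.9 and 89.0 CPM against 179, 132 and 124, and Psat1, of serine synthesis, 322, 318 and 306 against 545, 619 and 448. Both fell, with log2 fold changes of -0.79 ± 0.16 (edgeR adjusted p = 0.0220) and -0.77 ± 0.12 (edgeR adjusted p = 0.00825). Chac1 was called in 2 of the 6 fits with 1 library left out and had 0.0567 with the replicate block, and Psat1 was called in all 6. Asns, which makes asparagine, had 1031, 1124 and 1168 CPM against 1104, 1103 and 1227, and Phgdh 110, 146 and 117 against 133, 118 and 125. The groups of both genes overlapped. Atf4 had 563, 587 and 622 CPM against 492, 444 and 350, with all inhibitor libraries higher and a log2 fold change of 0.46 ± 0.13 that was not called by edgeR (adjusted p = 0.0592) but was by DESeq2 (adjusted p = 0.00328), and over 15 alternatives it was called in 6. Eif2ak4, the kinase GCN2 that senses uncharged tRNA, was low, at 4.94 ± 2.04 against 3.63 ± 1.36 CPM (SD, n = 3). Promoter windows were matched for 27 of the partner genes, and TGATGNAAN occurred in 3 of them, those of Trib3, Chac1 and Asns.

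**Figure D5:**
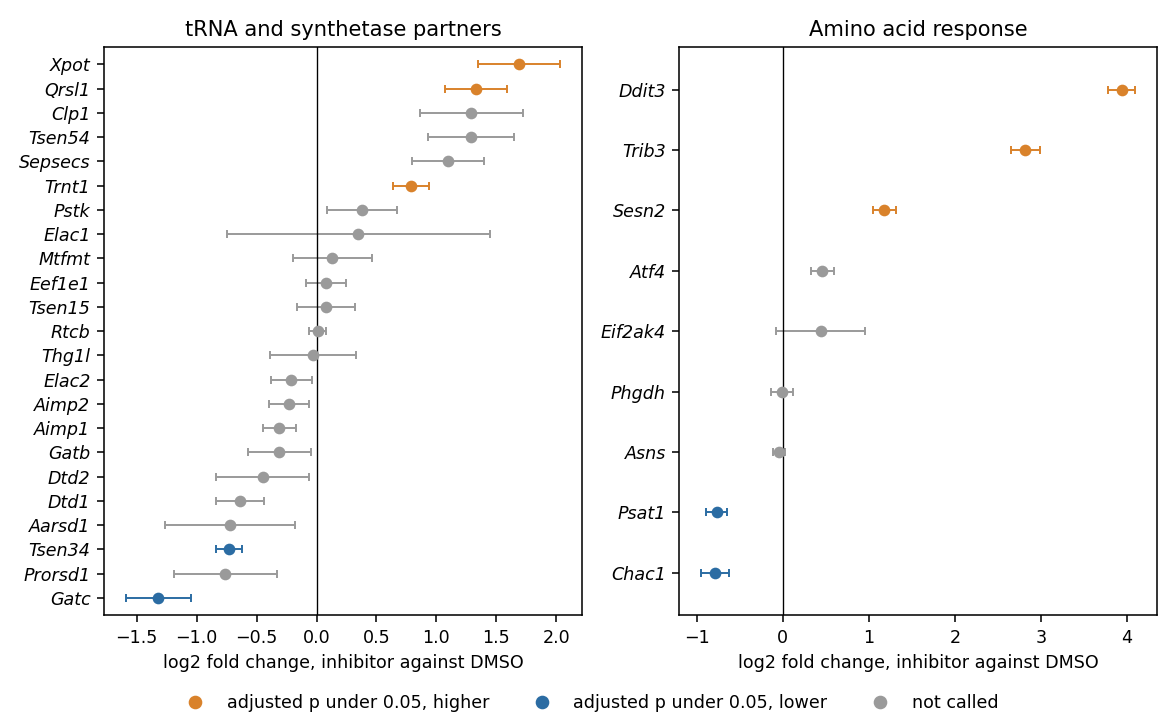
Log2 fold change of inhibitor against DMSO with its standard error (bars) for 23 of 24 partners of the synthetases in tRNA metabolism (left) and 9 genes of the amino acid response (right), with orange and blue points for genes called higher and lower by edgeR. The 2 panels have different x axes, and values reach 3.94 for Ddit3 on the right and -1.32 for Gatc on the left.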

How the data were processed

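RNA of 6 αTC1 libraries, 3 per group, was prepared by the Smart-seq2 protocol with Nextera XT and sequenced from both ends. The authors aligned reads to GRCm38 with STAR (version 2.7.9a in the submitters' processing notes), counted alignments on Ensembl transcripts in Union mode irrespective of strand, and summed them per gene. The deposited counts are whole numbers without normalization. The authors also deposited FPKM values, used here for levels between genes. Per the study's reporting summary, cells of one batch were divided between the treatments within a replicate and handled together, but the column letters cannot be tied to replicates. Deviations of same-letter libraries had correlations of 0.015, 0.003 and 0.025, and those of different letters lay between -0.027 and 0.012. As the letters may not mark the replicates, these values cannot show whether libraries were paired. The main test has no block, and a block by letter was run as an alternative. The p-values measure the spread between these libraries, with any pairing left out.

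Counts were tested in R 4.3.3 with edgeR 4.0.16: filterByExpr (minimum count 10, minimum total 15), TMM, the quasi-likelihood test and Benjamini-Hochberg adjustment over all 15082 tested genes, with calls at an adjusted p under 0.05. The standard error of a log2 fold change is its size over the root of the F statistic. CPM used TMM-normalised library sizes. With 3 against 3, exact permutation cannot go below 0.1 and was not used.

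Every synthetase matched by the name rule, every partner gene on the fixed lists and Smndc1 could be named, and Gm15564 was added after its values were seen. Some genes of the lists are counted but not reported here by name. A second gene model named Ddit3 had 0 counts and was left out. Members, lists and tests were chosen with earlier results of these data known. Exon overlaps used GENCODE vM21, with equal coordinates for 38 of 38 genes, and similar transcripts were found with blastn 2.17.0 (at least 95% identity over 100 bases; shorter matches only for Lars2). The alternatives were DESeq2 1.42.0, RLE factors, library size only, 2 other filters, limma-trend (limma 3.58.1) on log2 FPKM (pseudocount 1, or 0.1), gene length offsets, a replicate block, each library left out, Tarsl2 placed by its name ending, and a second threshold. Scripts were tested on simulated data. Tables and figures used Python 3.11.15, pandas 2.3.3 and matplotlib 3.10.9.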

Additional observations from a re-analysis of the deposited data

How the results depend on the processing

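Of the 8 called synthetases, none changed direction under the alternatives that were run. With library size only, the median over all genes moved from 0.04 to 0.25, and the calls over all genes from 1053 higher and 1177 lower to 1630 and 796. That scaling called 7 cytosolic and 5 mitochondrial genes higher and 0 lower in each set, with medians of 0.31 and 0.36. DESeq2 called 7 cytosolic, 5 mitochondrial and 10 partner genes higher, and 1858 higher and 1811 lower among all genes. The looser filter (a total of 1 count) and the stricter one (10 counts in each of the 6 libraries) both left 0 mitochondrial genes called lower. Over all genes, these filters gave 4.1% and 10.6% called lower. Gene length offsets called 838 genes higher in all and gave 0 cytosolic genes higher, 0 mitochondrial genes lower and a cytosolic median of -0.05. The second threshold left 0 cytosolic genes in either direction, beside 6.25% higher and 4.16% lower of all tested genes. The cause of these shifts was not tested.

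With the replicate block by column letter, 1 cytosolic gene (Sars) stayed higher and 0 lower, 2 mitochondrial genes (Lars2 and Cars2) were higher and 0 lower, and 3 partner genes were higher and 3 lower, while calls over all genes went from 1053 to 524 higher and from 1177 to 708 lower.

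Leaving out 1 library, which leaves 2 in its group, gave 0 to 3 cytosolic genes higher and 0 to 1 lower, 1 to 2 mitochondrial genes higher and 0 lower, and 3 to 7 partner genes higher and 2 to 3 lower. Over all genes, these fits called 3.41% to 3.84% higher and 4.41% to 5.91% lower, beside 6.98% and 7.8% with all 6 libraries. Calls were thus lost over the whole set of genes too. The medians ranged from 0.03 to 0.14 (cytosolic) and from 0.07 to 0.29 (mitochondrial). Sars lost its call without inhibitor library C or any DMSO library (edgeR adjusted p 0.0545 to 0.0687), Yars without library B or C of either group (0.0585 to 0.0787), Cars2 without inhibitor B or C or DMSO A or B (0.0828 to 0.0997), Tars without DMSO B (0.0541) or C (0.0593), Wars without DMSO A (0.0621) or C (0.0611), and Yars2 and Ears2 without any of the 6. Without DMSO library B or C, 0 cytosolic genes were higher, and without DMSO library A or C, 0 were lower.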
